A study of Homo sapiens with 6 samples.

Results

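The genes described are those of the HNRNP and RBM symbol families, which encode heterogeneous nuclear ribonucleoproteins (hnRNPs) and RNA-binding motif proteins. They were chosen as the protein-coding genes of the deposited count table whose symbol starts with HNRNP or RBM and that had at least 60 reads summed over all 6 libraries. The rule used no difference between the groups. It took 63 of the 29710 genes in the table, 22 with an HNRNP and 41 with an RBM symbol, from 68 candidates. All 63 also passed the filter on low counts and were tested.

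RNA sequencing was done on MDA-MB-231, an established human triple-negative breast cancer cell line. In 3 libraries the cells overexpressed SRPK2 with a FLAG tag (the SRPK2 group) and in 3 they carried an empty vector (the control group). The series describes the replicates of each condition as biological. The labels used here name no vector, promoter, clone or time point, and no other treatment or genetic change in either group.

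hnRNPs coat nascent transcripts through RRM, KH or RGG-rich domains and take part in splice site choice, mRNA export, stability and translation. RBM proteins are a set named for the same RNA recognition motif and have varied roles, among them core spliceosome components, alternative splicing regulators, exon junction and exosome adaptor proteins, and subunits of the m6A writer complex. SRPK2 is a kinase of arginine-serine repeat proteins, above all the SR proteins, which often act against hnRNPs at the same transcripts. The libraries measure RNA levels only, not phosphorylation, location or activity of these proteins.

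The values of some of these genes are uncertain because their transcripts share sequence with other genes. HNRNPA1 (hnRNP A1, GRCh38, chr12:54280193-54287088, plus strand) shares stretches of transcript with HNRNPA1P48 (chr16:51553436-51647132, plus strand), a gene that both the deposited table and GENCODE 29 call protein coding although it is named as a pseudogene. Of all 50-base stretches of the principal GENCODE 29 transcript of HNRNPA1, 28.8% also occurred in a transcript of another gene, and 22.4% in one of HNRNPA1P48. For HNRNPA1P48 the share was 49.2%. In all, 13 of the 63 genes had at least 20% of their 50-base stretches in another gene, while 22 had none. All these shares were taken over the principal transcript of each gene, not over all its exons. The highest shares belonged to the read-through genes HNRNPUL2-BSCL2 (98.8%) and RBM14-RBM4 (97.0%), whose transcripts join 2 neighbouring genes, and to RBM34 (81.4%, mostly with ARID4B, whose transcripts overlap it). Counts of these genes depend on how reads with several possible sources were assigned, and the sources used here do not give this.

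Promoter sequences are shown for a few genes picked by hand from those low or high in the fold change order described further on. Genes at its ends, such as RBM8A and RBMS3, are not shown. Each is the 100 bases upstream of both the RefSeq start (GRCh38.p14) and the GENCODE 29 gene start, 5′ to 3′ on the gene's strand, with CCAAT or its reverse complement ATTGG, the box bound by NF-Y, in capitals. They come from RBM3 (chrX:48574349-48574448, plus strand), HNRNPAB (chr5:178204407-178204506, plus), RBM14-RBM4 (chr11:66616526-66616625, plus), HNRNPA0 (chr5:137754377-137754476, minus) and RBMS2 (chr12:56521720-56521819, plus). The RBM14-RBM4 stretch is shared with RBM14, which starts within it at chr11:66616582 on the same strand.
RBM3: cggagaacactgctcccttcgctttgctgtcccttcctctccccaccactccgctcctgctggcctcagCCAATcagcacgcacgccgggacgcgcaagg
HNRNPAB: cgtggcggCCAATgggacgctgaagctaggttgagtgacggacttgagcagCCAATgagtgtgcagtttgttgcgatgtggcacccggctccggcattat
RBM14-RBM4: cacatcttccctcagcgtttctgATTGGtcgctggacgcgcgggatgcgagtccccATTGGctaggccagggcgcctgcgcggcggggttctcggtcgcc
HNRNPA0: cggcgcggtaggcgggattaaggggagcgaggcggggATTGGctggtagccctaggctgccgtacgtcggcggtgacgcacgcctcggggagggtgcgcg
RBMS2: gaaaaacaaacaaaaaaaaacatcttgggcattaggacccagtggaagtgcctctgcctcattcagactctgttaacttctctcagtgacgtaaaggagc

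The 4 genes that lay lower in the SRPK2 group hold 1 or 2 such boxes, and the RBMS2 stretch, from a gene that lay higher, holds none. These stretches were picked by hand and are too few to compare directions, so all matched genes were counted. RefSeq promoter windows were matched for 57 of the 63 genes, 72 windows in all, and CCAAT on either strand was found for 7 of the 10 matched genes whose libraries lay lower in the SRPK2 group without overlap, 3 of the 5 that lay higher and 28 of the 42 whose groups overlapped. Over windows, CCAAT on either strand occurred in 55.6% of those of the HNRNP and RBM genes and in 34.6% of all 35116 RefSeq windows. The GC box GGGCGG occurred in 62.5% against 45.0%, CCGGAAG, the ETS motif, in 16.7% against 10.3%, and TATAAA in 9.72% against 11.5%, each on either strand. Median GC content was 63.8% in the windows of these genes and 58.7% over all windows, and these motifs were counted without regard to it. All windows were taken without selection for gene type or for reads in these libraries, unlike those of the HNRNP and RBM genes.

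The libraries held 31140537 to 36908878 reads and 23664 to 24453 genes with a read. Counts of replicates differed by more than counting noise in every pair (chi-square over its degrees of freedom, 4.74 to 16.7), and no library was a copy of another. SRPK2, the overexpressed gene, had 37.8, 36.7 and 41.1 CPM (counts scaled to a common library size, with TMM factors) in the control libraries and 213, 248 and 294 in the SRPK2 libraries. The SRPK2 libraries were higher by 2.71 on the log2 scale (SE 0.10, n = 3 per group), which is the direction of the labels. The p-value from edgeR's quasi-likelihood method, adjusted after Benjamini and Hochberg over all tested genes, was 2.94e-08. Of the line's markers, VIM lay between 3279 and 3651 CPM, ESR1 had at most 2 reads and PGR at most 4 in a library, and ERBB2, low in such cells but measurable, had 46.2 to 52.1 CPM. Of 15 markers of blood, endothelial, stromal, neural and liver cells, 9 were under 1 CPM in all libraries, CD3E and CDH5 were at 0 reads, and the sum was 17.9 to 20.2 CPM in control and 19.5 to 21.2 CPM in SRPK2 libraries. Their part in the results was not tested.

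The HNRNP and RBM genes were an abundant and nearly constant part of the transcriptome. Together they took 1.17% to 1.22% of each library's reads, of which the HNRNP genes took 0.865% to 0.906% and the RBM genes 0.304% to 0.316%. Per length, in the FPKM (a read density per kilobase scaled to library depth) deposited by the authors, the HNRNP genes held the first 6 places. HNRNPAB, an hnRNP of the D family that binds AU-rich and single-stranded sequences, had the highest level, 185 FPKM ± 0.64 in control (SD, n = 3) and 174 ± 6.9 in SRPK2 libraries. HNRNPA1 followed with 129 ± 1.7 and 124 ± 2.8 FPKM, and HNRNPK, a poly(C)-binding KH protein, with 122 ± 2.7 and 123 ± 3.0 FPKM. HNRNPC, which binds uridine tracts as a tetramer, had 94.0 ± 1.8 and 92.3 ± 2.5 FPKM, and HNRNPA2B1 92.5 ± 3.4 and 94.1 ± 1.1 FPKM. The most abundant RBM gene was RBM3, a cold-inducible RNA-binding protein, with 83.8 ± 0.72 and 76.1 ± 4.2 FPKM, in 7th place among the 63.

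This order depended on the gene length used. The length implied by the deposited counts and FPKM was close to all exons merged (median ratio 1.10) and was a median of 1.85 times that of the principal GENCODE 29 transcript, with ratios from 1.04 to 10.9. On CPM per kilobase of the principal transcript, HNRNPC came 1st with 447 in control libraries, HNRNPA2B1 2nd with 372, RBM3 3rd with 252 and HNRNPAB 4th with 244. HNRNPA2B1 had the most reads of all 63 genes, at 1301 CPM ± 30.4 in control libraries.

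**Figure D1:**
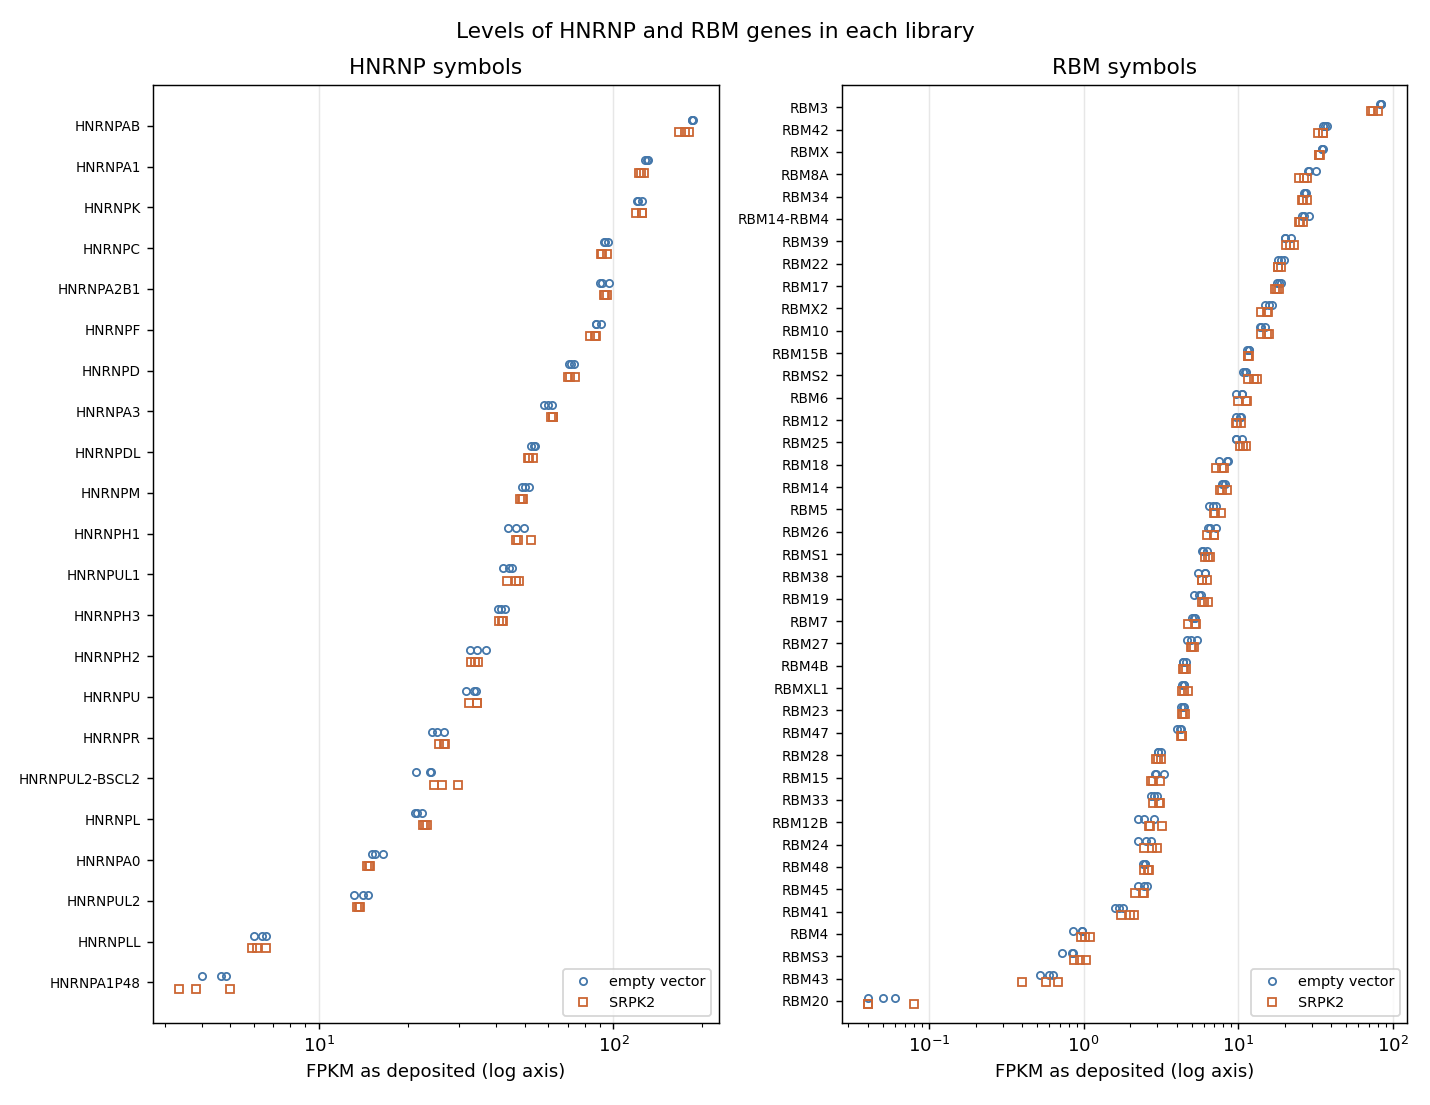
FPKM as deposited (log axis) of each HNRNP gene (left) and RBM gene (right) in each library, circles for the 3 empty-vector and squares for the 3 SRPK2 libraries, ordered by level. Levels run from 185 FPKM for HNRNPAB to 0.05 FPKM for RBM20 in control libraries, and the circles and squares of a gene lie close together beside that range.

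RBM20, a splicing factor of heart and skeletal muscle, was just above the read minimum with 101 reads in all, 0.541, 0.493 and 0.355 CPM in control and 0.383, 0.400 and 0.704 CPM in SRPK2 libraries, and the groups overlapped. RBM43 followed with 616 reads, and RBM4, a splicing regulator whose locus is shared with RBM14-RBM4, with 1476. Just below the minimum were RBM11 with 49 reads, RBM44 with 37 and RBMXL2, a testis gene of the RBMX family, with 8. RBM46, a germ cell gene, had 3 reads and HNRNPCL1 had 1. These 5 genes were not tested.

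The comparison of SRPK2 with empty-vector cells asks whether more SRPK2 went with other RNA levels of these binding proteins. None of the 63 genes passed the threshold (edgeR, adjusted p under 0.05), and the lowest adjusted p was 0.203, for RBM3. Over all 16515 tested genes, 0.454% passed, 0.381% higher and 0.0727% lower. DESeq2 and limma-voom also called 0 of these genes, with 0.926% and 0.412% of all genes called. At an unadjusted edgeR p under 0.05 there were 8 of 63 genes (12.7%), 3 higher and 5 lower, against 17.2% of all tested genes (9.06% higher, 8.1% lower). Both shares were at or below the background of the comparison.

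The sizes were small throughout. Log2 fold changes of the 63 genes ran from -0.20 (RBM8A) to 0.20 (RBMS3). The 95% interval lay within 1.25-fold either way for 56 of 63 genes and within 1.5-fold for 62, the exception being RBM20, against 8956 and 12753 of the 16515 tested genes. At these depths, then, a change above 1.5-fold lay outside the interval of 62 of the 63 genes. The log2 fold changes had a median of -0.02, and 40 of 63 genes (63.5%) lay below 0, against a median of 0.004 and 48.8% below 0 over all genes, whereas with libraries scaled by size alone the median of these genes was 0.01 with 29 of 63 below 0 and that of all genes 0.04. The HNRNP genes had a median of -0.05, with 16 of 22 below 0, and the RBM genes a median of -0.02, with 24 of 41 below 0. Scaled by size alone the medians were -0.01 and 0.01, beside 0.04 over all genes in the same fit. The median of the 63 genes minus that of all genes was -0.029 in both fits.

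**Figure D2:**
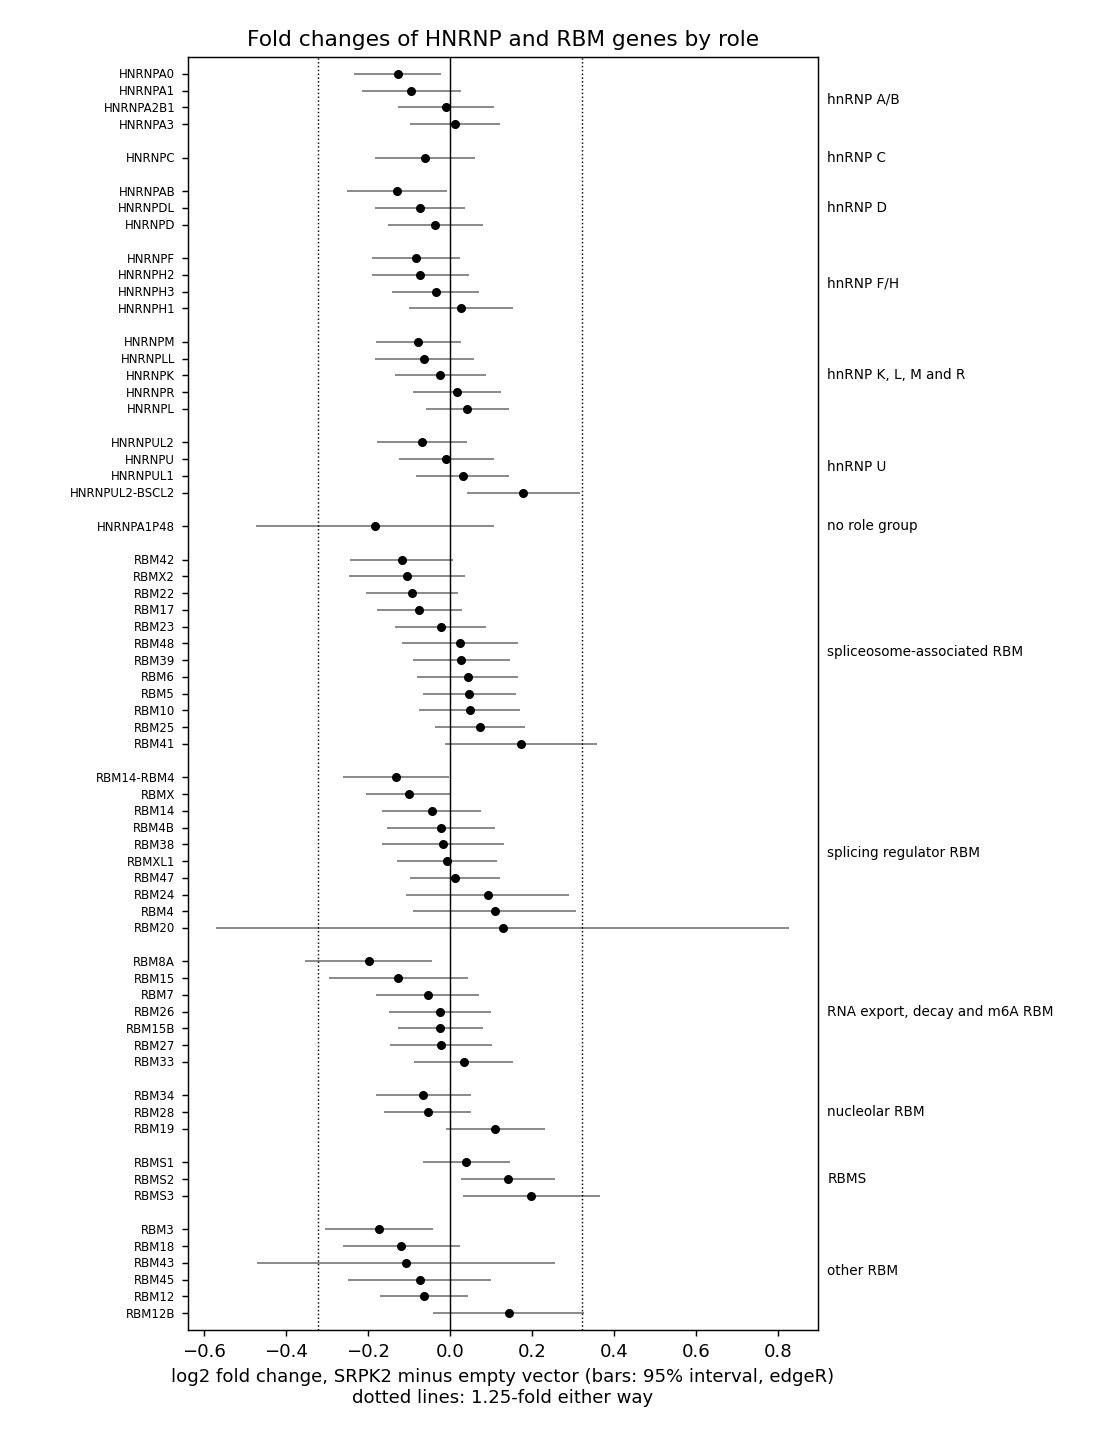
Log2 fold change (SRPK2 minus empty vector, edgeR) of each of the 63 genes by role, points for the estimate and bars for the 95% interval, with dotted lines at 1.25-fold either way. Points lie between -0.20 and 0.20, and the bar of RBM20 is the one that passes 1.5-fold.

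In the hnRNP A/B group, whose members bind UAGG-type motifs and often repress exons, 3 of 4 genes lay below 0, with a median of -0.05 (-0.02 with 2 of 4 below 0 when scaled by size alone), and 0 passed the test. With each library corrected for gene length, 4 of 4 lay below 0 and the median was -0.10. HNRNPA1 had 956, 994 and 951 CPM in control and 909, 940 and 867 CPM in SRPK2 libraries. The SRPK2 libraries all lay below the control libraries, with a log2 difference of -0.09 (SE 0.06, edgeR adjusted p = 0.383). HNRNPA2B1, a reader and carrier of exported RNA, had 1269, 1304 and 1330 against 1289, 1326 and 1259 CPM. Its groups overlapped, with a log2 fold change of -0.01, which was 0.02 with libraries scaled by size alone. HNRNPA0, which binds AU-rich elements, had 151, 150 and 158 against 140, 143 and 137 CPM, without overlap, and lay at -0.13 on the log2 scale (SE 0.05, edgeR adjusted p = 0.227). HNRNPA3 shared 49.9% of its 50-base stretches with other genes and had a log2 fold change of 0.01, or -0.02 once each library was corrected for gene length.

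HNRNPA1P48 had 10.4, 10.2 and 8.42 against 7.09, 10.6 and 7.80 CPM. SRPK2 replicate 2 was the highest of the 6 libraries and the other SRPK2 libraries the lowest, so the groups overlapped (log2 fold change -0.18, SE 0.13, edgeR adjusted p = 0.487).

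In the hnRNP D group, which binds AU-rich elements in mRNA, all 3 genes lay below 0, with a median of -0.07 (-0.04 when scaled by size alone, again all 3 below 0), and 0 passed the test. With the correction for length all 3 lay below 0 at a median of -0.07. HNRNPAB had 439, 444 and 431 against 406, 421 and 375 CPM. The groups did not overlap, and the log2 fold change was -0.13 (SE 0.06, edgeR adjusted p = 0.269), or -0.05 with the correction for length. HNRNPD (AUF1), an mRNA decay factor, had 562, 557 and 560 against 569, 546 and 522 CPM, with overlap and a log2 fold change of -0.04. HNRNPC, described apart as the C protein, had 765, 795 and 740 against 732, 768 and 704 CPM, also with overlap, and a log2 fold change of -0.06.

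The F/H group binds G-runs through quasi-RRM domains. Of its 4 genes 3 lay below 0 and the median was -0.05, against 2 of 4 and -0.02 when scaled by size alone, and 0 passed the test. With the correction for length these were 3 of 4 and -0.04. HNRNPF had 319, 323 and 326 against 298, 315 and 302 CPM, without overlap, at a log2 fold change of -0.08. HNRNPH1 had 466, 500 and 515 against 485, 495 and 529 CPM, with overlap, at 0.03, which became -0.03 with the correction for length. The group of HNRNPK, HNRNPL, HNRNPLL, HNRNPM and HNRNPR had 3 of 5 genes below 0 and a median of -0.02, against 2 of 5 and 0.01 when scaled by size alone, and 0 past the test. With the correction for length these were 4 of 5 and -0.03. HNRNPK, with 692, 693 and 698 against 670, 700 and 678 CPM, had a log2 fold change of -0.02, or 0.01 with libraries scaled by size alone. HNRNPM, a GU-rich element binder known for splicing in the epithelial to mesenchymal transition, had 316, 312 and 318 against 303, 298 and 295 CPM, without overlap, at -0.08.

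The hnRNP U group holds scaffold attachment proteins with a SAP domain. Of its 4 genes 2 lay below 0 and the median was 0.01, against 3 of 4 and -0.04 with the correction for length, and 0 passed the test. Scaled by size alone these were 1 of 4 and 0.05. HNRNPU, the best known of them, had 847, 804 and 841 against 848, 804 and 824 CPM, a log2 fold change of -0.01, or 0.03 with size scaling. HNRNPUL1 had 340, 320 and 323 against 343, 322 and 339 CPM, a log2 fold change of 0.03, or -0.002 with the correction for length. The read-through gene HNRNPUL2-BSCL2 (chr11:62690275-62727384, minus strand) had 107, 96.8 and 105 against 115, 109 and 126 CPM, without overlap, at 0.18 on the log2 scale (SE 0.06, edgeR adjusted p = 0.211). Its component genes did not lie above 0 beside it: HNRNPUL2 had a log2 fold change of -0.07 and BSCL2 of -0.07. The difference between the read-through gene and its components was not tested, and reads of this locus fit more than 1 of the 3 annotated genes.

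Spliceosome-associated RBM genes encode spliceosome components and factors of splice site recognition. Of 12 genes, 5 lay below 0 and the median was 0.03, against 8 of 12 and -0.02 with the correction for length, and 0 passed the test. Scaled by size alone these were 4 of 12 and 0.06. RBM42 had 92.5, 91.7 and 85.9 against 85.7, 86.2 and 77.0 CPM, with overlap, at a log2 fold change of -0.12. RBM39, a U2AF-like factor with an arginine-serine domain that is the target of degrader sulfonamides, had 269, 271 and 290 against 269, 285 and 292 CPM, at 0.03, or -0.03 with the correction for length. RBM41, a protein of the minor spliceosome, had 11.6, 12.4 and 10.7 against 13.5, 11.8 and 13.8 CPM. SRPK2 replicate 2 lay within the control range, and the log2 fold change was 0.17 (SE 0.09, edgeR adjusted p = 0.318). The other spliceosome-associated genes lay between -0.11 (RBMX2) and 0.07 (RBM25).

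Among the 10 RBM splicing regulators 6 lay below 0 and the median was -0.01, against 3 of 10 and 0.02 when scaled by size alone, and 0 passed the test. With the correction for length 6 of the 9 genes with a length lay below 0, at a median of -0.02. RBMX (hnRNP G) had 232, 232 and 225 against 215, 217 and 210 CPM. All SRPK2 libraries lay below the control libraries, with a log2 difference of -0.10 (SE 0.05, edgeR adjusted p = 0.301). RBM14-RBM4 (chr11:66616626-66646469, plus strand) had 77.4, 83.7 and 73.1 against 70.5, 74.3 and 68.7 CPM, with overlap through SRPK2 replicate 2, at -0.13 (SE 0.06, edgeR adjusted p = 0.281). Its neighbours RBM14, a paraspeckle protein, and RBM4 had log2 fold changes of -0.05 and 0.11. RBM4 was low, with 6.26, 7.21 and 6.94 against 6.93, 7.35 and 7.67 CPM, and overlapped between groups.

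Of 7 RBM genes of RNA export, decay and m6A, 6 lay below 0 with a median of -0.03, against 3 of 7 and 0.01 when scaled by size alone, and 0 passed the test. With the correction for length 7 of 7 lay below 0, at a median of -0.08. RBM8A (Y14, ENSG00000265241.7, chr1:145917714-145927678, minus strand) binds MAGOH in the exon junction complex, the mark left on spliced mRNA. It had 178, 200 and 172 CPM in control and 163, 172 and 145 CPM in SRPK2 libraries. Every SRPK2 library lay below every control library, but control replicate 3 at 172.2 CPM and SRPK2 replicate 2 at 171.9 CPM nearly touched. The log2 fold change was -0.20 (SE 0.07, 95% interval -0.35 to -0.04, edgeR adjusted p = 0.215), the lowest of the 63 genes. RBM15B, an RNA-binding subunit of the m6A writer complex, had 86.9, 85.1 and 85.2 against 85.4, 85.3 and 82.2 CPM, at -0.02, or 0.01 with size scaling.

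The complexes these RBM proteins join were covered by a list of 21 tested partner genes. None passed the edgeR test, and the median log2 fold change was 0.01 (0.04 when scaled by size alone, 0.001 with the correction for length). An unadjusted edgeR p under 0.05 was found for 5 of 21 genes (23.8%, 3 higher and 2 lower), where 17.2% of all tested genes had one. In the exon junction complex, MAGOH had 83.0, 87.4 and 77.3 against 70.0, 83.8 and 66.7 CPM, at -0.17 (edgeR adjusted p = 0.297). MAGOHB, its near-identical copy, lay at -0.20 (edgeR adjusted p = 0.280), the helicase EIF4A3 at -0.13 (edgeR adjusted p = 0.254) and CASC3 at 0.01. With the correction for length MAGOH lay at -0.07, MAGOHB at -0.20, EIF4A3 at -0.15 and CASC3 at -0.02. In MAGOH, MAGOHB and EIF4A3, as in RBM8A, SRPK2 replicate 2 was the highest of the SRPK2 libraries, and in the first 3 it overlapped the control libraries. PABPN1, the nuclear poly(A)-binding protein of the exosome adaptor that RBM26 and RBM27 join, had 14.4, 14.3 and 15.5 against 18.3, 17.4 and 18.9 CPM, without overlap, at 0.30 (SE 0.07, edgeR adjusted p = 0.0798). PABPN1 passed with the correction for length, at 0.33 (edgeR adjusted p = 0.0431), and without SRPK2 replicate 2, at 0.33 (0.0202). Without that library MAGOH at -0.27 (0.0220) and MAGOHB at -0.31 (0.0249) passed as well. These were 1 of 21 higher and 2 lower, where 3.29% of all tested genes were called higher and 5.08% lower, 8.37% in all. With the correction for length 1 partner gene was called, where 0.822% of genes with a length were.

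The nucleolar group of RBM19, RBM28 and RBM34, whose proteins reside in the nucleolus, had 2 of 3 genes below 0 and a median of -0.05, which was -0.02 both when scaled by size alone and with the correction for length, and 0 passed the test. RBM19 had 37.7, 34.4 and 35.9 against 38.8, 37.9 and 39.8 CPM, without overlap, at 0.11 (edgeR adjusted p = 0.325). RBM34 had 88.0, 90.5 and 89.1 against 85.0, 90.1 and 80.5 CPM, with overlap, at -0.07.

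The RBMS genes, whose proteins bind single-stranded DNA and AU-rich RNA, were the one role group with every member above 0, where with the correction for length 1 of 3 lay below. RBMS1, RBMS2 and RBMS3 had a median log2 fold change of 0.14 (0.09 with that correction and 0.18 when scaled by size alone), and 0 of 3 passed the test. RBMS1 had 78.1, 78.0 and 80.9 against 82.4, 79.1 and 82.2 CPM, with overlap, at 0.04, or -0.02 with the correction for length. RBMS2 had 113, 109 and 108 against 124, 114 and 126 CPM, without overlap, at 0.14 (SE 0.05, edgeR adjusted p = 0.227). RBMS3 (ENSG00000144642.22, chr3:28574791-30010391, plus strand) had 17.4, 15.03 and 17.4 against 19.2, 17.7 and 20.3 CPM, without overlap, at 0.20 (SE 0.08, 95% interval 0.03 to 0.37, edgeR adjusted p = 0.232). This was the highest fold change of the 63 genes, but with the correction for length it was 0.12, below HNRNPUL2-BSCL2 at 0.19 and RBM41 at 0.15.

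Of 6 other RBM genes 5 lay below 0 with a median of -0.09, which was -0.06 when scaled by size alone and -0.10 with the correction for length, and 0 passed the test. RBM3 (ENSG00000102317.18, chrX:48574449-48579066, plus strand) had 543, 559 and 534 CPM in control and 481, 519 and 450 CPM in SRPK2 libraries. The groups did not overlap, and the log2 fold change was -0.17 (SE 0.06, 95% interval -0.31 to -0.04, edgeR adjusted p = 0.203). RBM12 had 73.2, 77.7 and 76.6 against 72.0, 71.9 and 73.8 CPM, with overlap, at -0.06, and RBM12B 22.1, 24.7 and 27.6 against 25.7, 26.3 and 30.1 CPM, with overlap, at 0.14 (SE 0.08, edgeR adjusted p = 0.390).

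A further list held 17 tested hnRNP-class proteins and relatives whose symbols lack the prefix, such as PTBP1, PCBP2 and SYNCRIP. None passed the edgeR test, and 2 of 17 (11.8%, both lower) had an unadjusted edgeR p under 0.05, where 17.2% of all tested genes did. Below 0 lay 12 genes and the median was -0.04, against 9 of 17 and -0.002 when scaled by size alone. With the correction for length these were 12 of 17 and -0.07. CIRBP, the cold-inducible relative of RBM3, had 69.1, 66.4 and 66.2 against 60.4, 60.2 and 60.7 CPM, without overlap, at -0.15 (SE 0.05, edgeR adjusted p = 0.185). TIA1, a stress granule protein, had 24.9, 28.9 and 29.05 against 28.2, 29.1 and 34.4 CPM, with overlap, at 0.15 (edgeR adjusted p = 0.366).

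In 16 of the 63 genes (25.4%) the groups' libraries did not overlap, 5 higher and 11 lower in SRPK2 cells, against 20.1% of all tested genes (11.5% higher, 8.69% lower). The 5 higher were RBMS3, HNRNPUL2-BSCL2, RBMS2, RBM19 and HNRNPL. The 11 lower were RBM8A, RBM3, HNRNPAB, HNRNPA0, RBMX, HNRNPA1, HNRNPF, HNRNPM, RBM17, HNRNPDL and RBM28. In 13 of these 16 genes SRPK2 replicate 2 was the SRPK2 library nearest to the control mean. The share over all tested genes without overlap was not counted, so this is not shown to be particular to these genes.

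**Figure D3:**
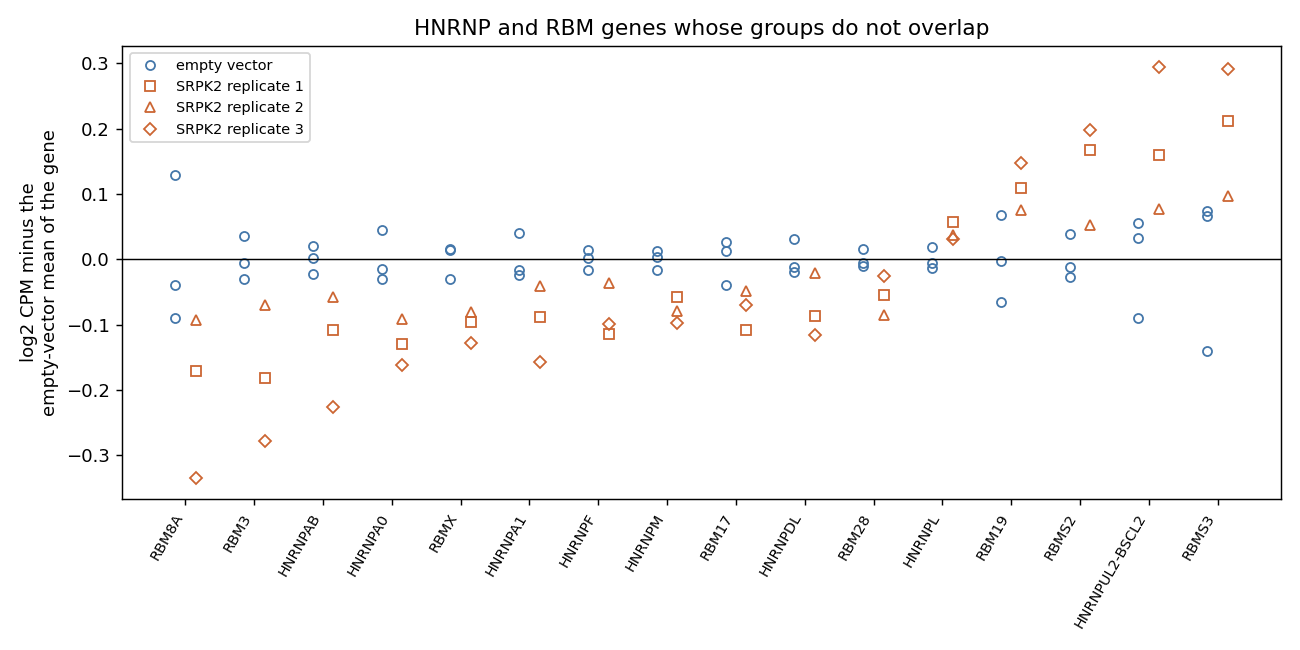
Log2 CPM of each library minus the gene's mean over the empty-vector libraries, for the 16 genes whose groups do not overlap, circles for empty vector and squares, triangles and diamonds for SRPK2 replicates 1, 2 and 3. In 13 of the 16 genes the triangle, SRPK2 replicate 2, lies nearest to the control mean.

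Leaving out SRPK2 replicate 2 gave calls in both directions. HNRNPUL2-BSCL2 was then at 0.23 (edgeR adjusted p = 0.0382) and RBMS2 at 0.18 (0.0497), and RBM8A lay at -0.25 (0.0399), RBM3 at -0.23 (0.0335) and HNRNPA1P48 at -0.37 (0.0480). These were 2 of 63 genes higher and 3 lower, where 3.29% of all tested genes were called higher and 5.08% lower, 8.37% in all. Leaving out any other single library gave 0 calls among the 63 genes. With all 6 libraries but no filter on low counts RBM8A was called lower at -0.20 (edgeR adjusted p = 0.0307), where 2.04% of genes were called lower and 3.36% in all. SRPK2 RNA in SRPK2 replicate 2 was at 248 CPM, with 213 and 294 CPM in SRPK2 replicates 1 and 3. The part of the SRPK2 level in these calls was not tested.

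Fold changes were compared with gene length. Across 62 genes with a length from the deposited tables, the log2 fold change correlated with log2 length at Pearson r = 0.42 and Spearman rho = 0.48, and across all 13624 tested genes with such a length at 0.26 and 0.35. These are correlations across genes of the same 6 libraries, and genes are not independent replicates. With the length of the principal GENCODE 29 transcript instead, the correlation over 63 genes was weaker, at r = 0.16 and rho = 0.21. The genes were also split in 3 equal parts by that transcript. The shortest part (1528 to 2471 bases) had 15 of 21 genes below 0 and a median of -0.07. The middle part (2488 to 4192 bases) had 12 of 21 and a median of -0.02. The longest (4243 to 15507 bases) had 13 of 21 and a median of -0.02. After the correction of each library for length the median of the genes was -0.05 with 48 of 62 below 0, 0 were called where 0.822% of genes with a length were, and RBM3 and RBM8A lay at -0.19 and -0.21. A smaller part of the genes below 0 lay nearer to 0 with that correction. HNRNPAB moved from -0.13 to -0.05, RBM14-RBM4 from -0.13 to -0.07, HNRNPA1P48 from -0.18 to -0.10, RBM42 from -0.12 to -0.04, RBM34 from -0.07 to -0.02 and HNRNPF from -0.08 to -0.05. Among genes above 0, RBMS3 moved from 0.20 to 0.12, RBMS2 from 0.14 to 0.09 and RBM12B from 0.14 to 0.09, while HNRNPUL2-BSCL2 lay at 0.19. Most of the genes below 0 lay farther below it with the correction. Among them were HNRNPA0 at -0.18 after -0.13 and HNRNPA1 at -0.13 after -0.09. HNRNPC lay at -0.10 after -0.06 and HNRNPU at -0.09 after -0.01. The part of RNA quality or library preparation in this relation was not tested.

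**Figure D4:**
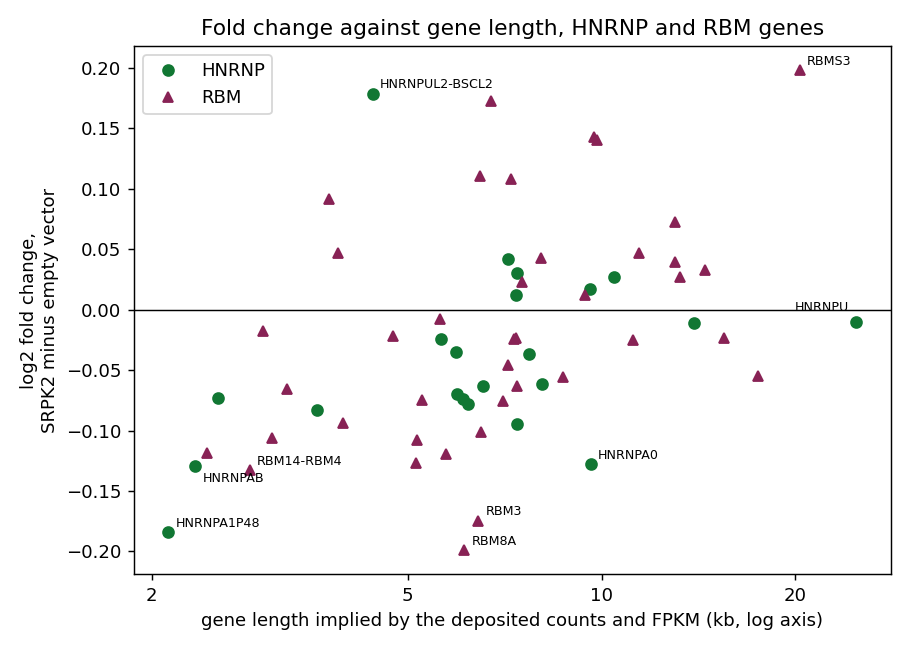
Log2 fold change (SRPK2 minus empty vector) against the gene length implied by the deposited counts and FPKM (log axis), one point per gene, circles for HNRNP and triangles for RBM. Shorter genes such as HNRNPAB and RBM14-RBM4 lie below 0 and RBMS3, among the longest by this measure, lies highest, with Pearson r = 0.42 over 62 genes. The principal GENCODE 29 transcript of RBMS3 has 1864 bases, among the shorter ones.

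Of the 63 genes, 16 overlap exons of a gene on the same strand and 29 those of a gene on the opposite strand. The libraries are described as strand-specific, while the strand setting of the counting is unknown from the sources used here, and the levels of those genes may include reads of their neighbours.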

How the data were processed

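RNA of 6 MDA-MB-231 libraries, 3 per group, was analysed, with groups and replicate numbers taken from the sample titles. Per the labels' protocols, TRIZOL total RNA was DNase treated and sequenced in paired-end mode. The submitters' processing notes name bcl2fastq, FastQC, HISAT2 and GRCh38, without versions. Which program counted reads, with what strand setting and on which annotation release, is not given in the sources used here. The authors deposited whole-number counts per gene, not normalized (29710 genes), and FPKM values (29256 genes).

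The test was edgeR's quasi-likelihood F test (version 4.0.16, under R 4.3.3), two-sided, with TMM factors, the filterByExpr filter and the group as the only term. Benjamini-Hochberg adjustment ran over the 16515 genes tested, which held 99.9% of reads. The biological coefficient of variation was 5.85%. Counts had 31140537 to 36908878 reads per library. The scripts were tested on simulated data. Coordinates, lengths and shared 50-base stretches came from GENCODE 29 (GRCh38), all 63 genes matching by identifier, and promoters from RefSeq (GRCh38.p14). Alternatives were RLE factors, library size alone, no filter, a filter at a mean of 5 CPM, limma-voom, DESeq2 1.42.0 and limma 3.58.1 on log2(FPKM + 1) or log2(FPKM + 0.1) with a mean FPKM of at least 0.5, the replicate number as a block, leaving out each library and, added after seeing the data, a loess correction for length (span 0.3, 13624 genes).

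The families, role groups and the 2 other lists were chosen with earlier results of these data known. The rule for named genes took SRPK2, called genes, the 5 highest and 5 lowest fold changes among genes of at least 5 CPM, the 5 most abundant by FPKM, the 2 most abundant of each of 12 role groups and 3 genes either side of the read minimum. From the 2 lists it took the 2 largest changes each. Others, such as the genes without overlap, HNRNPA0, HNRNPUL2, BSCL2, RBM14, HNRNPA3 and the exon junction genes, were named after their values were seen. The values of a few list genes and a stretch of sequence are not reported here.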

Additional observations from a re-analysis of the deposited data

How the results depend on the processing

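In edgeR 0 of the 63 genes were called higher and 0 lower, as with RLE factors, library size alone, a mean CPM of at least 5, DESeq2, limma-voom, both FPKM fits and the length correction. Without a filter on low counts 1 was called lower, RBM8A (adjusted p = 0.0307, with 997 of 29710 genes called). Over the fits that leave out each library, 0 to 2 were called higher and 0 to 3 lower. The replicate numbers are shared by the groups without a stated pairing, and libraries of the same number had correlations of their deviations of 0.08, 0.23 and 0.17, each of the 6 correlating best with its own number. With the replicate block 5 were called higher and 14 lower, where 1753 and 2146 of all tested genes were, 23.6% together (3899 genes). The 5 were HNRNPUL2-BSCL2, RBM12B, RBM19, RBMS2 and RBMS3. The 14 were RBM8A, RBM3, HNRNPAB, HNRNPA0, RBM14-RBM4, RBMX, RBM42, HNRNPA1, RBM18, HNRNPF, HNRNPM, HNRNPDL, RBM22 and RBM17. In that fit 6 of the 21 partner genes and 5 of the 17 relatives without the prefix passed. The count over all tested genes was 75, and 153 by DESeq2, 2 by limma on log2(FPKM + 0.1), 49 on log2(FPKM + 1), 27 to 1403 when each library was left out and 112 with the length correction. The median log2 fold change of the 63 genes was 0.011 with library size alone and in the FPKM + 0.1 fit, 0.010 in the FPKM + 1 fit, -0.048 with the length correction, and -0.037 to -0.027 when each library was left out. Of the 31 genes tracked, the sign turned for HNRNPA2B1 with library size alone (0.024) and in both FPKM fits (0.025), for HNRNPU (0.025 with library size and FPKM + 1, 0.026 with FPKM + 0.1), for HNRNPK (0.011 in those 3) and for RBM15B (0.011, and 0.010 with FPKM + 1), and with the length correction for HNRNPH1 (-0.026), RBM39 (-0.034), RBMS1 (-0.022) and HNRNPUL1 (-0.0024). Over the fits that leave out each library, it turned within the ranges of HNRNPA2B1 (-0.030 to 0.0049), HNRNPH1 (-0.014 to 0.057), HNRNPU (-0.036 to 0.0085), RBM20 (-0.23 to 0.27), RBM39 (-0.0015 to 0.062) and RBM43 (-0.27 to 0.052). None of these genes was called in any of those fits, and the cause was not tested. Over the genes and alternatives, the sign and call were as reported in 445 cases, the sign turned in 26 and a gene newly passed the threshold in 20. Counting noise limits RBM20, at 101 reads, most.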

Other observations

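Pseudogenes and noncoding genes with these symbols were counted apart from the 63 genes. The 58 pseudogene and related entries held 575 to 716 reads together in a library. HNRNPA1P10, a processed pseudogene of HNRNPA1, had the most, 1549 reads in all, at 7.94, 7.21 and 6.69 against 8.11, 7.72 and 6.97 CPM, with overlap and a log2 fold change of 0.06. HNRNPCP2 had 1.31, 1.26 and 1.20 against 1.40, 1.92 and 1.41 CPM, without overlap, at 0.33 (edgeR adjusted p = 0.377), while HNRNPC lay at -0.06. HNRNPA3P5 had 0.171, 0.308 and 0.301 against 0.543, 0.772 and 0.444 CPM from 88 reads in all, without overlap, at 1.16 (SE 0.34, edgeR adjusted p = 0.165), while HNRNPA3 lay at 0.01. Of the antisense RNAs, RBMS3-AS3 had a log2 fold change of -0.12 beside 0.20 for RBMS3, and neither passed the test. These entries were named after their values were seen. Their reads cannot be told apart with certainty from those of the parent genes where sequence is shared.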
